A study of Mus musculus with 474 samples.

Results

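The fat-rich and fat-poor muscle samples were 2 sets of 50 RNA-seq libraries chosen by the level of Adipoq, the transcript of adiponectin, a hormone that adipocytes secrete. Libraries were placed in 10 groups by sex and generation number and ranked within each group by the deposited Adipoq score. The 5 highest of each group formed the high set and the 5 lowest the low set, so that the sets held 100 libraries. Groups had 48, 45, 49, 46 and 47 libraries from females and 46, 48, 50, 47 and 48 from males, in order of generation, and those not chosen were in neither set. Each set had 25 libraries labelled female and 25 labelled male. All libraries came from skeletal muscle (the gastrocnemius, according to the methods) of Diversity Outbred mice, an outbred stock bred from several inbred founder strains in which every animal has its own genotype. All animals received the same high-fat, high-sugar diet, labelled as 45% fat, and each gave 1 library. The numbers 17, 18, 19, 21 and 23 in the library titles were read as generations, which is an assumption. The methods name only 18, 19 and 21 of these as generations of the animals. No age at collection was given in the labels. No treatment, second diet or fixed genotype separated the sets. Their difference was the measured level of 1 adipocyte transcript.

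White adipocytes store triglyceride in 1 large droplet coated by perilipin 1 (Plin1) and enlarged by the droplet fusion protein CIDEC. They release fatty acids by hormone-sensitive lipase under adrenergic control and secrete adiponectin, leptin and resistin. Adipocytes lie between the fibres and bundles of skeletal muscle, and fat depots also border the muscle, so a dissected muscle can carry varying amounts of fat. In bulk RNA, fewer cells of a type and less RNA per cell cannot be told apart, and "fat-rich" below means only rich in Adipoq transcript.

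Adipoq (chromosome 16, 23146536 to 23158028, GRCm38) was detected in every library. In CPM (counts scaled to a common library total), the high set ran from 22.05 over a median of 46.2 to 93.8 and the low set from 1.14 over a median of 5.37 to 8.80. The mean was 47.3 ± 15.4 CPM (SD, n = 50) in the high set, 8.965 times that of 5.28 ± 1.89 in the low set. These levels follow from the choice of libraries and were not tested. On the deposited score, a variance-stabilised value (VST) close to a log2 scale, the high set started at 10.93 and the low set ended at 9.74, and the libraries in neither set lay between 8.98 and 11.9. The limits differed between groups. Among females of generation 17 the lowest chosen as high had 11.8 and the next library below it 11.6, whereas among males of generation 18 these values were 10.93 and 10.89. At the lower limit, the highest chosen as low and the next above it had 9.71 and 9.72 among females of generation 17, and 9.38 and 9.38 among males of generation 18. No gap set the chosen libraries apart from the rest.

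**Figure D1:**
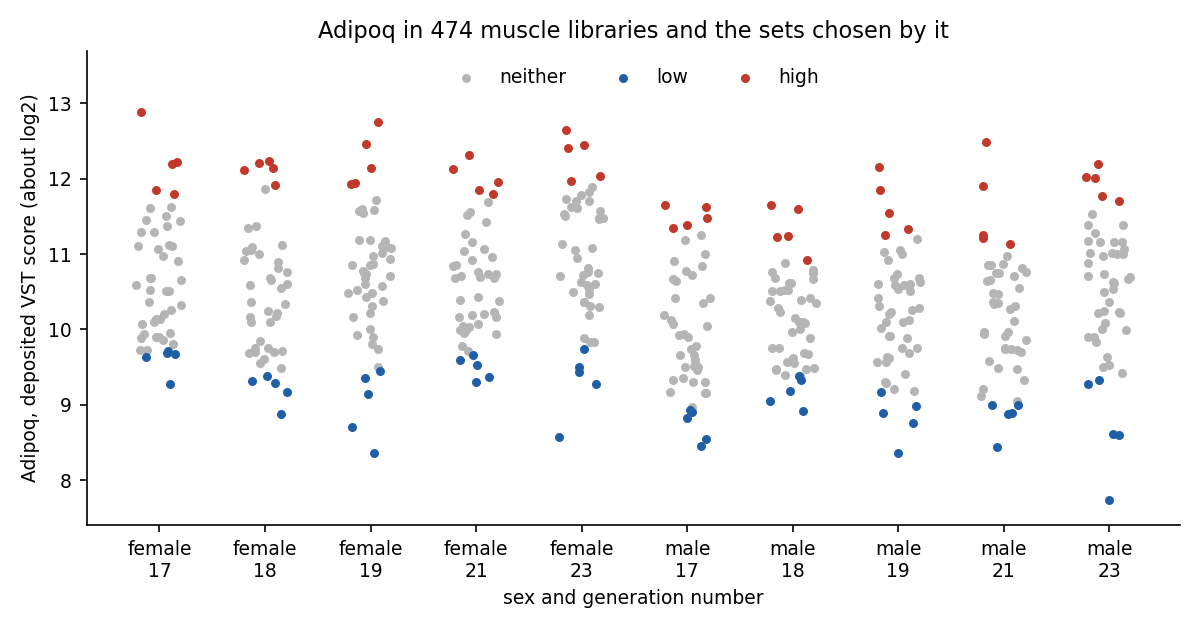
Deposited Adipoq score (vertical axis, VST, about log2) of all libraries in the 10 groups of sex and generation (horizontal axis), 1 point per library. The 5 highest of each group are red, the 5 lowest blue and the others grey, and in every group the colours meet without a break.

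Total counts of the chosen libraries lay between 49011933 and 129507731. The mean was 77376353 ± 17144313 (SD) in the high set and 82572514 ± 17857726 in the low set. This difference did not pass the test (permutation within groups, 2-sided, p = 0.134, adjusted p = 0.201 over 3 measures). The share of counts from the 10 most abundant genes (27.1% ± 1.31 against 27.5% ± 1.29, adjusted p = 0.201) and from mitochondrial genes (10.3% ± 2.17 against 10.5% ± 1.66, adjusted p = 0.589) did not pass the test either. Sex-linked transcripts went against the label in 1 of the 100 libraries, a high library labelled male of generation 19. Its column in the deposited tables is 1 of 4 that stand out of the order of the samples, of which 2 went against their sex label, and columns were matched by name throughout. Without this library 5497 genes were called between the sets, against 5581 with it. Runs of library numbers, divided at gaps and at 96 numbers, gave 5 blocks. The high and low sets were unequally placed in the fourth, with 10 high and 3 low libraries.

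The 2 genes named with Adipoq as markers of adipocytes separated the sets without overlap. Plin1 (chromosome 7, 79720218 to 79732903) ranged from 12.7 over a median of 43.3 to 121.02 CPM in the high set and from 1.44 over 4.82 to 10.2 CPM in the low set. Every high library thus lay above every low library. The log2 difference was 3.11 ± 0.12 (SE), and it lay between 2.14 and 3.58 within the 10 groups (edgeR quasi-likelihood test, adjusted p = 2.4e-41). Cidec (chromosome 6, 113424634 to 113435760) ranged from 11.7 over 37.95 to 87.6 CPM and from 1.42 over 4.42 to 10.2 CPM, a log2 difference of 3.09 ± 0.11 (adjusted p = 1.54e-43). Both sets held adipocyte transcripts, and both markers lay with Adipoq although the ranking did not use them.

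Across all 18592 genes tested, 3153 were higher in the high set (17%) and 2428 were lower (13.1%) at an adjusted p under 0.05. Rises reached larger sizes than falls. At least 1.5-fold differences were seen for 1381 genes that rose (7.43%) and for 24 that fell (0.129%). Of these 24, 22 had a mean under 1 CPM, and the others, Gm13341 and Gm10874, were lower in 7 of the 10 groups and are named here after their values were seen. The split depended on scaling. With each library scaled by its total count alone, in place of the TMM factors used throughout, 5037 genes were higher (27.1%) and 1.16% of genes were lower, and the median log2 difference over all genes moved from -0.004 to 0.083. All 3153 genes called higher were called higher under that scaling too, and the 1.16% called lower were all among the 2428 called lower before, of which 0 became higher.

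There were 12 genes (0.0645% of those tested) for which all 50 high libraries exceeded all 50 low libraries. Beside Plin1 and Cidec these were Scd1, Prkar2b, Slc7a10, Trarg1 and Tshr, and, named after their values were seen, Arxes1, Lgals12, Dram1, Hacd2 and Ctcflos. Scd1, the stearoyl-CoA desaturase that makes monounsaturated fatty acids, had the second largest rise after Pck1 among protein-coding genes with a mean of at least 50 CPM that rose in all 10 groups. It ranged from 449.4 over 1685 to 4196 CPM in the high set and from 67.1 over 197.8 to 389.1 CPM in the low set (log2 difference 3.20 ± 0.12, adjusted p = 4.98e-41). Prkar2b, the type II beta regulatory subunit of protein kinase A, ranged from 6.45 to 52.5 CPM against 0.789 to 3.32 CPM (3.36 ± 0.13, adjusted p = 2.4e-41). Tshr, the thyrotropin receptor, ranged from 1.79 to 12.1 CPM against 0.275 to 1.21 CPM (2.74 ± 0.12). Trarg1, a regulator of trafficking of the glucose transporter GLUT4, ranged from 4.52 to 24.4 CPM against 0.8835 to 3.82 CPM (2.49 ± 0.11).

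Of the 19 adipocyte marker genes tested besides Adipoq, 18 were higher and 0 lower, with a median log2 difference of 2.52 where that of all genes was -0.004. The member that did not pass was Plin4, which coats droplets in muscle as well as in fat. It ranged from 361.98 over 531.5 to 974.9 CPM in the high set and from 224.1 over 485.1 to 1012 CPM in the low set (0.16 ± 0.08, adjusted p = 0.098). The largest difference of the list was that of Adrb3, the beta-3 adrenergic receptor of adipocytes, at 3.81 ± 0.26 (0.0862 over 5.16 to 24.2 CPM against 0.0295 over 0.289 to 1.57 CPM). Mrap, an accessory protein of the ACTH receptor, differed by 3.06 ± 0.15. Fabp4, the adipocyte fatty acid binding protein, had a median of 320.4 CPM in the high set and 111.3 CPM in the low set (1.58 ± 0.08), and 47 of the 50 high libraries exceeded every low library. Aoc3, a cell-surface amine oxidase, differed by 1.58 ± 0.07. Of the same 19 genes, 17 were higher and 0 lower when the libraries rich in lymphocyte genes or Ucp1, described below, were left out (background 5.92% and 2.19%).

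Of 12 genes of the lipid droplet 5 were higher and 2 lower, beside 17% and 13.1% of all genes, and with total-count scaling 6 were higher and 1 lower. Besides Plin1 and Cidec, Cidea, a relative of CIDEC best known from brown fat, rose by 2.89 ± 0.29, and Plin2, the perilipin of small droplets in many cell types, by 0.57 ± 0.07 (adjusted p = 3.75e-11). Plin5, the perilipin of oxidative muscle, had medians of 17.9 and 18.2 CPM, and its log2 difference of -0.06 ± 0.09 did not pass the test (adjusted p = 0.68). Fitm1, a droplet formation protein known from muscle, was lower by 0.27 on the log2 scale (SE 0.05, adjusted p = 3.84e-06), and it stayed below 0 at -0.19 with total-count scaling. Fitm2 was at -0.09 ± 0.04 (adjusted p = 0.0498), a call that was lost with that scaling (adjusted p = 0.939).

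Most genes of lipogenesis were higher. Of 14 genes 9 were higher and 1 lower (median 0.87), beside 17% and 13.1% of all genes. Fasn, fatty acid synthase, had a median of 151.5 CPM (35.6 to 1275) in the high set and 27.1 CPM (12.5 to 121.2) in the low set. The sets overlapped, with 30 high libraries above every low library, and the difference was 2.78 ± 0.19 (adjusted p = 9.2e-24). Elovl6, a fatty acid elongase, rose by 2.47 ± 0.20, Slc25a1, the mitochondrial citrate exporter, by 2.31 ± 0.12, and Acaca, acetyl-CoA carboxylase 1, by 1.06 ± 0.11. Mlxipl, which encodes the carbohydrate-responsive transcription factor ChREBP, was the member called lower (-0.15 ± 0.05, adjusted p = 0.00836, and -0.07 with adjusted p = 0.339 under total-count scaling). In triglyceride synthesis, beside the same shares, 6 of 12 were higher and 1 lower (median 0.28). Pck1, which supplies glycerol phosphate in adipocytes, ranged from 11.1 over 79.04 to 290.9 CPM against 1.06 over 4.70 to 27.65 CPM. This was the largest rise among protein-coding genes with a mean of at least 50 CPM that rose in all 10 groups (4.10 ± 0.20, adjusted p = 7.46e-33). Mogat1 rose by 2.91 ± 0.28, Agpat2 by 1.76 ± 0.12 and Dgat2, which adds the last fatty acid, by 0.86 ± 0.09. Agpat1 was at -0.13 ± 0.03 (adjusted p = 0.00205), a call that did not hold under total-count scaling (adjusted p = 0.455).

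Among lipolysis genes 10 of 14 were higher and 0 lower (median 0.89), beside 17% and 13.1% of all genes, and 7 were higher without the Ucp1-rich libraries described below (median 0.70), where 7.11% of all genes were. Besides Adrb3 and Prkar2b, Ptger3, a prostaglandin E2 receptor, rose by 2.52 ± 0.15, Adrb1, the beta-1 receptor, by 1.90 ± 0.33, and Pde3b, the phosphodiesterase through which insulin restrains lipolysis, by 1.67 ± 0.13. Of the fatty acid uptake list 7 of 12 were higher and 1 lower (median 0.16), and 5 were higher and 0 lower without the lymphocyte-rich libraries described below (median 0.17, background 8.29% and 4.05%). Angptl4, an inhibitor of lipoprotein lipase, rose by 1.44 ± 0.13, Fabp5 by 0.89 ± 0.08 and Cav1, caveolin 1, by 0.34 ± 0.04. The transporter Cd36 (0.26 ± 0.05, adjusted p = 4.82e-05) rose by less. Lipoprotein lipase, Lpl, which muscle fibres also express, was at 0.16 ± 0.06 (adjusted p = 0.0342), a call that held in 14 of 30 alternatives, over which its value lay between -0.019 and 0.395. Fabp3, the fatty acid binding protein of heart and muscle, was lower (-0.33 ± 0.09, adjusted p = 0.00413), a call lost without those libraries (-0.19, adjusted p = 0.182), and its slope on Adipoq in the libraries in neither set was -0.008 (adjusted p = 0.941).

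Of 13 adipokine genes 10 were higher and 1 lower (median 0.76), beside 17% and 13.1% of all genes. Lep, leptin, the satiety hormone of white fat (chromosome 6, 29060220 to 29073877), ranged from 1.30 over 14.7 to 96.85 CPM in the high set and from 0.05955 over 2.54 to 10.4 CPM in the low set. The ranges overlapped, with 30 of 50 high libraries above every low one, and the difference was 2.94 ± 0.28 (adjusted p = 2.47e-15). Retn, resistin, ranged from 1.86 over 9.91 to 43.6 CPM against 0.0806 over 1.43 to 4.56 CPM (2.72 ± 0.15). Cfd, adipsin or complement factor D, ranged from 4.72 over 73.9 to 258.7 CPM against 1.10 over 13.0 to 32.2 CPM (2.52 ± 0.19). Rbp4, retinol binding protein 4, rose by 2.135 ± 0.113. Nampt, an NAD synthesis enzyme that is also secreted, was lower (-0.17 ± 0.04, adjusted p = 0.00034).

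Of 12 transcription factors of fat cell formation, 3 were higher and 3 lower (median -0.03), beside 17% and 13.1% of all genes. Cebpa, which holds the mature adipocyte state, had medians of 13.5 and 3.41 CPM, and 49 of 50 high libraries lay above every low one (2.02 ± 0.09, adjusted p = 6.35e-35). Pparg, the nuclear receptor that drives fat cell formation, had medians of 6.57 and 2.83 CPM (1.15 ± 0.07, adjusted p = 8.73e-27). Ebf1 rose by 0.49 ± 0.04. Rxrg (-0.23 ± 0.07), Mlxipl and Rxra were called lower, and 0 members were under total-count scaling. Of 13 adipocyte markers found in the RefSeq promoter table (GRCm38.p6), 4 held the C/EBP-type motif TTGCNNAA, read on both strands, between 250 bases before and 50 after a start site, where 12.2% of all genes in that table did. They were Cidec, Lep, Plin1 and Pparg. The promoters of Plin1 (chr7:79732727-79733026, minus strand), Lep (chr6:29059971-29060270, plus strand) and Adipoq (chr16:23146286-23146585, plus strand) are shown because Plin1 and Adipoq mark the sets and Lep encodes a hormone of white fat. Each runs 5′ to 3′ along its gene with the motif in capitals.
Plin1: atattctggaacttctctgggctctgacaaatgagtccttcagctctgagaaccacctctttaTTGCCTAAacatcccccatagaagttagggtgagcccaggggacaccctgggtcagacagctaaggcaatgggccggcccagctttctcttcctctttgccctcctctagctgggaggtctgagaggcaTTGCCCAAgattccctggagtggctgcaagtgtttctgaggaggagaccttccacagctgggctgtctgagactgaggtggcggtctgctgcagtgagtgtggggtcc
Lep: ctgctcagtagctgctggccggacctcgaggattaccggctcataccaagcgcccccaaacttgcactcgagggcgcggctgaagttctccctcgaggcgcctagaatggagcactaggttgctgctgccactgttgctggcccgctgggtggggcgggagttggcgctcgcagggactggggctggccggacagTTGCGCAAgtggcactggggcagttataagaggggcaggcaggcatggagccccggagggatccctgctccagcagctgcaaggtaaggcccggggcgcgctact
Adipoq: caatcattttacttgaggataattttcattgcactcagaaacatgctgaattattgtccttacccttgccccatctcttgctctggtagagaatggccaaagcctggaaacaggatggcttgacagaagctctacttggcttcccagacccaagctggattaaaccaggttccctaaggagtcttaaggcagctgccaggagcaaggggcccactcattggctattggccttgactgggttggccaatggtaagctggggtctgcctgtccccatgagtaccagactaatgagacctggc
Plin1 held 2 matches, Lep 1 and Adipoq 0. The motif was matched by its letters alone.

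**Figure D2:**
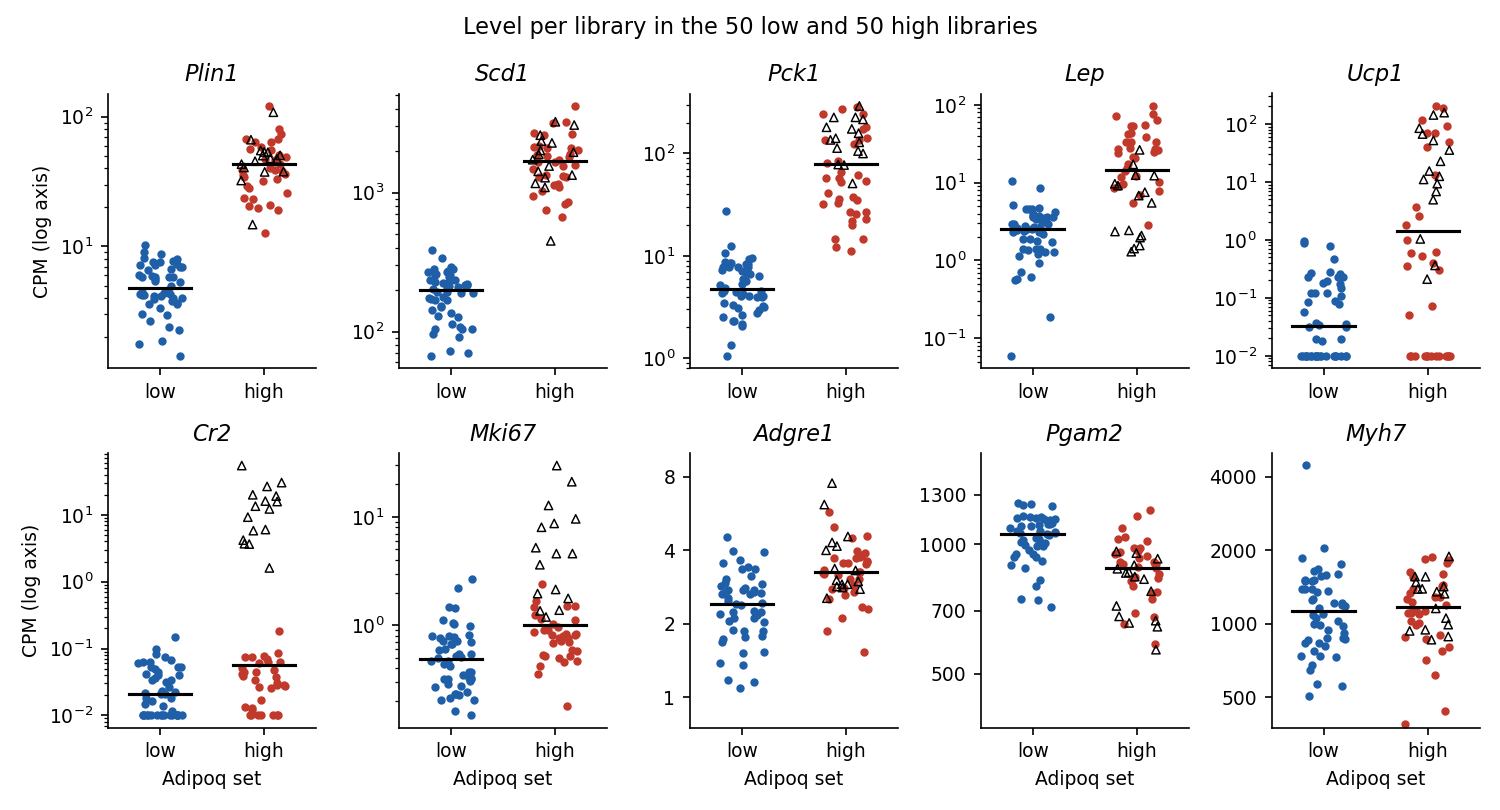
Level of 10 genes in each of the 50 low and 50 high libraries (vertical axes, CPM on a log scale, values under 0.01 drawn at 0.01), with bars at the medians. Open triangles mark the 16 high libraries with over 5 CPM of summed lymphocyte genes. Plin1 and Scd1 do not overlap between the sets, Cr2 is at 1.60 CPM or more in the triangles and at most at 0.184 CPM in the other libraries, and the Myh7 values overlap.

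The relation was examined again in the libraries that were in neither set. There the slope of each gene on Adipoq, in log2 units per VST unit within groups, was called positive for 2197 of 18777 genes (11.7%) and negative for 1360 (7.24%). When libraries rich in lymphocyte genes or Ucp1, described below, were left out, it was called positive for 966 (5.13%) and negative for 3% of genes. Of the 3092 genes called higher between the sets and also tested there, 1832 had a positive slope called and 0 a negative one. Of the 2428 called lower, 22.2% had a negative slope called and 0 genes a positive one. Of the 19 adipocyte markers, 18 had a positive slope called and 0 a negative one, with a median of 0.83. Plin1 had a slope of 1.085 ± 0.035 and Cidec of 1.09 ± 0.03, which is close to 1 unit of log2 level for each unit of Adipoq. The 10 genes most like Adipoq over these libraries, by Pearson correlation of residuals from group means, were Cidec (r = 0.86), Plin1 (0.853), Prkar2b (0.802), Slc7a10 (0.786), Scd1 (0.785), Trarg1 (0.784), Fabp4 (0.784), Aoc3 (0.772), Smoc1 (0.764) and Tshr (0.762). The points share library preparation and scaling. Smoc1, a secreted calcium-binding matrix protein, differed by 2.19 ± 0.09 between the sets.

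**Figure D3:**
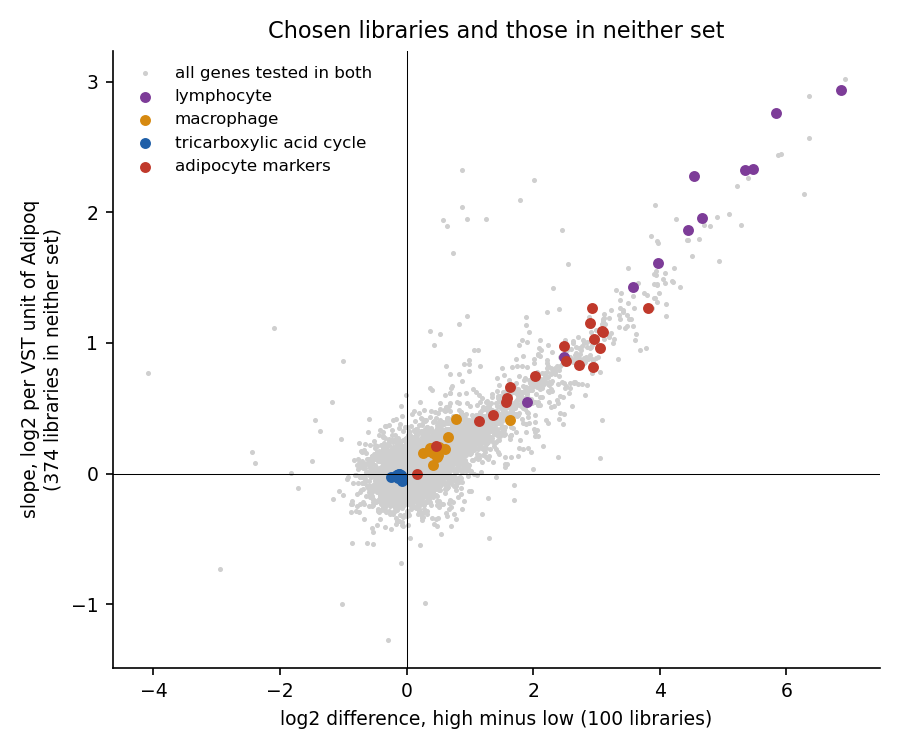
Log2 difference between the high and low sets (horizontal axis) against the slope on Adipoq in the libraries in neither set (vertical axis, log2 per VST unit), 1 point per gene tested in both. Adipocyte markers (red), other than Plin4, and lymphocyte genes (purple) lie to the upper right, macrophage genes (orange) nearer the centre, and citric acid cycle genes (blue) at or just below 0 on both axes.

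A part of the high set was also rich in lymphocyte transcripts. The summed level of 11 B and T cell genes ran from 0.652 over a median of 1.74 to 342.7 CPM in the high set, and from 0.392 over 1.32 to 3.18 CPM in the low set. It exceeded 5 CPM in 16 of the 50 high libraries (11.4 to 342.7 CPM), in 0 of the 50 low and in 21 libraries in neither set (5.61%). The 5 CPM limit was set after these values were seen. These 16 libraries were found in 9 of the 10 groups and in all 5 library blocks, with 11 from females and 5 from males. Cr2, complement receptor 2 of B cells and follicular dendritic cells, had a median of 12.9 CPM in the 16 (1.60 to 54.6), 0.0320 CPM in the other 34 high libraries (0 to 0.184) and 0.02115 CPM in the low set (0 to 0.149). The same split was seen for Cd8a of cytotoxic T cells (4.65, 0.02345 and 0.0195 CPM). Cxcl13, the chemokine of B cell follicles, which was chosen after its values were seen, had medians of 6.14, 0.468 and 0.300 CPM. Adipoq itself had a median of 45.4 CPM in the 16 and 46.8 CPM in the other 34.

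Genes of proliferation and antigen presentation moved with this split. Over the whole sets, 11 of 11 lymphocyte, 14 of 15 mitosis and 7 of 7 MHC class II genes were higher and 0 lower. Their medians were 4.54, 1.06 and 1.30, and of all genes 17% were higher and 13.1% lower. Of the listed genes, 3 lymphocyte genes and 1 mitosis gene passed the filter on low counts only with the 16 libraries in. These counts and medians are therefore a description of the sets. The part of these libraries in other results was examined by leaving them out. Without the 16, 1542 genes were called higher (8.29%) and 753 lower (4.05%). The mitosis list then had 0 of 14 called in either direction (median 0.26), and MHC class II 0 of 7 (median 0.28). The lymphocyte list, by which these libraries were left out, had 0 of 8. Mki67, the proliferation antigen Ki-67, had a median of 4.58 CPM in the 16 libraries, 0.804 CPM in the other 34 and 0.484 CPM in the low set. Its log2 difference was 1.92 ± 0.30 with all libraries and 0.54 without the 16 (adjusted p = 0.0571). Top2a, a topoisomerase of dividing cells, went from 1.98 ± 0.33 to 0.45 (adjusted p = 0.225). Ciita, the regulator of MHC class II genes, went from 1.94 ± 0.32 to 0.05 (adjusted p = 0.888), and Cd74, the invariant chain, from 1.40 ± 0.23 to 0.28 (adjusted p = 0.155). Ccl21a, a chemokine of lymphatic and lymphoid stromal cells with near-identical copies in the genome, had medians of 23.7, 5.94 and 5.58 CPM in the 3 sets of libraries. A rule picked the 10 largest rises among protein-coding genes of at least 1 CPM that rose in all 10 groups. These included the lymphoid cell genes Cd79a, Lck, Spib, Cd22, Ikzf3 and Fcer2a, at 4.06 to 5.47. Without the 16 these genes were between -0.14 and 0.32, apart from Lck, which was too low to test there. Cd79a had means of 14.5 CPM in the 16, 0.0760 CPM in the other 34 and 0.0678 CPM in the low set, so it reached 1 CPM only through the 16. The largest rises also included Ucp1, Pck1 and Ces1f, a carboxylesterase (3.995 ± 0.258, and 3.66 without the 16).

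**Figure D4:**
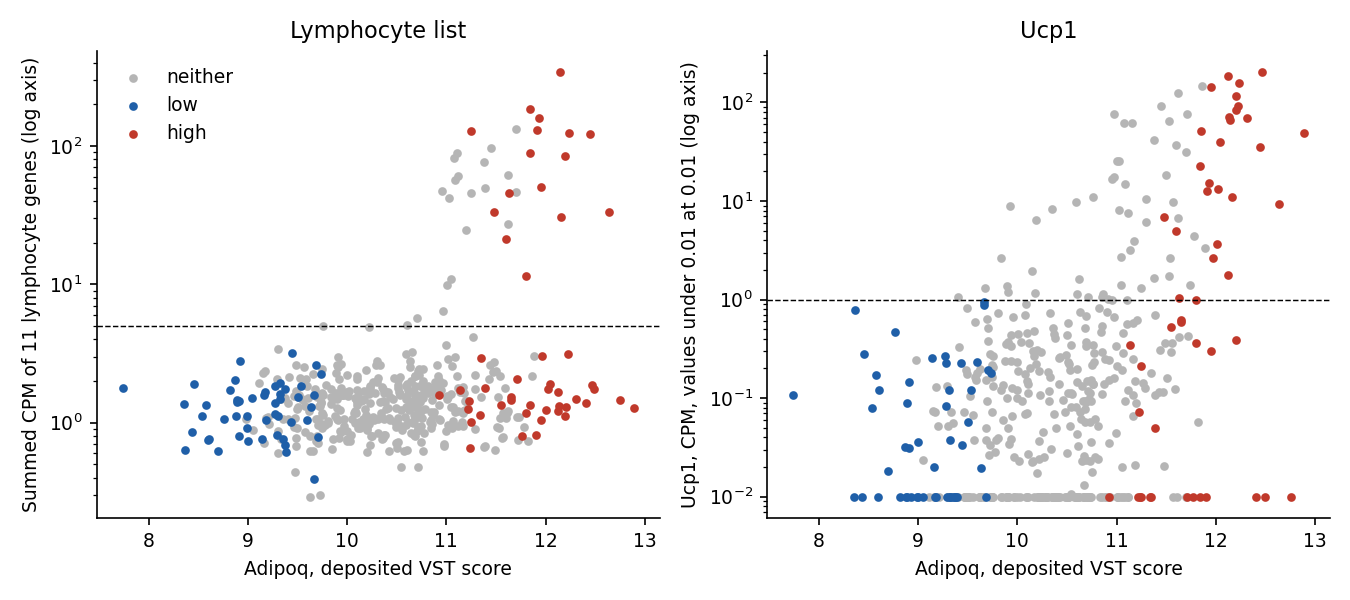
Summed CPM of 11 lymphocyte genes (left) and CPM of Ucp1 (right), both on log axes, against the Adipoq score of each library. Dashed lines mark 5 CPM and 1 CPM. Of the 50 high libraries (red) 16 lie above the left and 26 above the right line, and 0 of the 50 low (blue) lie above either.

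Ucp1, the uncoupling protein of brown and beige fat (chromosome 8, 83290352 to 83298452), was the largest rise that the rule for named genes picked (6.93 ± 0.65, adjusted p = 1.42e-15). It ranged from 0 over 1.41 to 203.95 CPM in the high set and from 0 over 0.0325 to 0.955 CPM in the low set, with 13 high and 20 low libraries at 0. A count of 0 allows up to 3 counts, which was 0.062326 CPM in the shallowest high and 0.059388 CPM in the shallowest low library. It exceeded 1 CPM in 26 of the 50 high libraries, of which 14 were among the 16 rich in lymphocyte genes. Females held 20 of the 26. Of 9 brown fat genes 6 were higher and 3 lower, beside 17% and 13.1% of all genes. Without the libraries over 1 CPM of Ucp1, 0 of the 8 still tested were higher and 2 lower (background 7.11% and 2.05%). Without those of either kind 1 of 7 was higher and 1 lower (background 5.92% and 2.19%). Ucp1, by which libraries were left out, is itself 1 of the 9 genes, so its own loss was fixed by that choice. In females alone 5 of 9 were higher and in males 1 of 7, so that 2 members passed the filter on low counts only with part of the libraries in, and the counts are a description. Slc27a2, a fatty acid transporter and acyl-CoA synthetase, rose by 4.32 ± 0.55 and Lhx8, a homeobox factor, by 2.34 ± 0.36, both from medians near 0. Without the libraries over 1 CPM of Ucp1, Slc27a2 was too low to test and Lhx8 was at 1.15 (adjusted p = 0.151). Those lower were Zic1 (-0.42 ± 0.13), Cox8b (-0.23 ± 0.04) and Cpt1b (-0.14 ± 0.04), of which Cox8b and Cpt1b are also transcripts of muscle fibres.

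With the 28 high libraries over either limit left out, 22 high and 50 low libraries remained, the high ones 4 from females and 18 from males, so that leaving them out and the change in the balance of the sexes cannot be told apart. Then 1111 genes (5.92%) were higher and 2.19% lower. Plin1 differed by 2.85, Cidec by 3.07, Scd1 by 3.05, Pck1 by 2.95 and Lep by 3.91. Fasn then differed by 1.76, where it differed by 3.485 in all females and 2.08 in all males, Acaca by 0.36 (1.52 and 0.60), and Cidea by 0.65 (4.13 and 1.65). For Lep the differences were 2.35 in all females and 3.505 in all males.

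Most macrophage and mast cell genes were higher. Of 14 macrophage genes 13 were higher (median 0.47), beside 17% of all genes, and 12 without the 16 lymphocyte-rich libraries (median 0.37, background 8.29%). There were 10 without libraries over either limit (median 0.33, background 5.92%) and 8 in males alone (median 0.36, background 6.95%). With the lymphocyte level as covariate there were 9 (median 0.34), where 1367 of 18592 genes were higher. Adgre1, the F4/80 antigen, ranged from 1.53 over 3.26 to 7.53 CPM against 1.09 over 2.42 to 4.53 CPM (0.49 ± 0.09). Itgax, CD11c, rose by 1.63 ± 0.28, and by 0.68 without those libraries (adjusted p = 0.0474). Trem2, a lipid-sensing receptor of macrophages in fat, rose by 0.79 ± 0.21 and Lgals3, galectin 3, by 0.61 ± 0.11. Lyz2, lysozyme of myeloid cells, rose by 0.66 ± 0.12, a call lost without those libraries (0.19, adjusted p = 0.176). Of 6 mast cell genes 5 were higher (median 0.61), with the proteases Mcpt4 at 0.84 ± 0.16 and Cpa3 at 0.64 ± 0.14. Without the 16, 5 of the 6 were higher (median 0.47). With libraries over either limit left out, which left 22 high libraries, 0 were called, and the median was 0.45.

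Of 12 genes of fibro-adipogenic progenitors, the mesenchymal cells of muscle that can become adipocytes, 7 were higher and 0 lower (median 0.18). Pdgfra, their receptor tyrosine kinase, had medians of 36.9 and 33.3 CPM (0.16 ± 0.04, adjusted p = 0.00323). Dpt, dermatopontin, ranged from 39.15 over 52.9 to 70.3 CPM against 17.2 over 33.5 to 43.4 CPM (0.65 ± 0.04), and 40 of 50 high libraries lay above every low one. Dpp4 rose by 0.61 ± 0.08. Of 17 collagen and matrix genes 11 were higher and 0 lower (median 0.18), led by Postn, periostin (0.86 ± 0.09), Col3a1 (0.41 ± 0.07), Lox, lysyl oxidase (0.40 ± 0.07), and Fn1, fibronectin (0.38 ± 0.06). Endothelial genes gave 1 higher and 2 lower of 10 (median -0.02), near the 17% and 13.1% of all genes. Of 10 Schwann cell genes 3 were higher (median 0.23), among them Pmp22 at 0.225 ± 0.080, a call that held in 17 of 30 alternatives. In the libraries in neither set 0 of the 10 had a slope on Adipoq called (median 0.031). Between the sets, 7 were higher without the 16 lymphocyte-rich libraries (median 0.38, background 8.29%). With library block as covariate 6 were higher (median 0.257), where 3105 of 18592 genes were. In females alone 0 were called (median 0.06) and in males 6 (median 0.405), where 15.4% and 6.95% of all genes were higher, and the term for a difference between the sexes was called for 0 of the 10. Lymphatic endothelial genes gave 4 higher of 6 (median 0.26), with Lyve1 at 0.29 ± 0.08. Without the 16 lymphocyte-rich libraries they gave 1 of 6 (background 8.29%), at a median of 0.22. Erythroid (6 genes), tendon (8) and the 3 measured skin genes gave 0 calls in either direction. In females alone 6 of the 8 tendon genes were lower (median -0.425, background 9.21%), in males 0 (median 0.06, background 2.49%), and the term for sex was called for 0 of them. In the libraries in neither set the slope on Adipoq was positive for 5 of the 6 erythroid genes (median 0.305) and 2 of the 3 skin genes. It was negative for 1 skin gene (background 11.7% positive and 7.24% negative). Between the sets, the pericyte and smooth muscle list gave 1 higher and 2 lower of 8, also near the 17% and 13.1% of all genes.

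Most fast fibre, glycolysis and citric acid cycle genes were lower, by small amounts. Of 12 fast fibre genes 10 were lower and 0 higher (median -0.15), of 14 glycolysis genes 10 (median -0.15) and of 18 citric acid cycle genes 16 (median -0.12), where 13.1% of all genes were lower. With total-count scaling the medians stayed below 0, at -0.06, -0.06 and -0.04, and 3, 3 and 1 genes were called (background 1.16%). Without the 16 lymphocyte-rich libraries 4 of each list were called (background 4.05%). Without libraries over either limit 3, 1 and 1 were called (background 2.19%), at medians of -0.114, -0.105 and -0.076. In females alone 14 of the 18 citric acid cycle, 5 of the 12 fast fibre and 8 of the 14 glycolysis genes were lower (background 9.21%), and in males alone 1, 8 and 5 (background 2.49%). The term for sex was called for 0 genes of these lists. Pgam2, the muscle phosphoglycerate mutase, had a median of 878.3 CPM (highest 1201) in the high set and 1057 CPM (highest 1247) in the low set. The ranges overlapped widely, and the value was lower in 10 of 10 groups (-0.26 ± 0.04, adjusted p = 2e-07, and -0.18, adjusted p = 0.000386, under total-count scaling). Myl1, a myosin light chain of fast fibres, was at -0.18 ± 0.03 and Sdhc, a subunit of succinate dehydrogenase, at -0.16 ± 0.03. Myh4, the type IIb myosin heavy chain, had medians of 67363 and 71453 CPM (-0.09 ± 0.04, adjusted p = 0.0657), and Myh1 did not pass either (adjusted p = 0.235). Myh2, type IIa myosin, was at -0.22 ± 0.07 (adjusted p = 0.00519) and lost the call under total-count scaling (adjusted p = 0.102). Slow fibre genes gave 0 calls of 10 (median 0.00), and Myh7, the slow myosin heavy chain, had medians of 1174 and 1133 CPM (0.03 ± 0.09, adjusted p = 0.844).

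Of 15 insulin signalling genes 2 were higher and 2 lower, near the 17% and 13.1% of all genes. In the libraries in neither set the slope on Adipoq was called negative for 5 of the 15 and positive for 1 (background 7.24% and 11.7%). Slc2a4, the glucose transporter GLUT4 of muscle and fat, ranged from 280.4 over 360.5 to 485.8 CPM against 315.8 over 414.5 to 516.6 CPM and was lower in 10 of 10 groups (-0.19 ± 0.03, adjusted p = 1.32e-07). It was at -0.105 under total-count scaling (adjusted p = 0.00471). Irs1 (-0.25 ± 0.11, adjusted p = 0.0798), Pdk4 (0.29 ± 0.12, adjusted p = 0.0607) and Ucp3 (0.01 ± 0.10, adjusted p = 0.945), genes that follow insulin and fatty acid supply in muscle, did not pass the test. Pdk4 did so under total-count scaling, at 0.37 (adjusted p = 0.0126). The slope of Ucp3 on Adipoq in the libraries in neither set was -0.142 (edgeR, adjusted p = 0.0238). Of 17 genes of mitochondrial fatty acid oxidation 0 were higher and 1, Cpt1b, lower, a call lost under total-count scaling (adjusted p = 0.241). Of 13 PPAR-responsive genes 5 were higher, among them Angptl4, described above, and Ucp2 at 0.79 ± 0.10, and Fabp3 was lower. Branched-chain amino acid breakdown gave 2 higher and 3 lower of 19, the circadian clock 3 lower of 14, immediate-early genes 1 lower of 14, the myogenic list 2 lower of 11 and muscle atrophy genes 0 of 12. Under total-count scaling these gave 6 higher, near the 27.1% of all genes, then 0, 0, 1 lower and 0.

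The largest falls among protein-coding genes of at least 1 CPM, each lower in 10 of 10 groups, were Rhbdl1 (-0.58 ± 0.13), Gm20683 (-0.50 ± 0.11), Zic1, Smox (-0.40 ± 0.11), Prokr1 (-0.39 ± 0.11), Alpl (-0.36 ± 0.07), Amd1 (-0.36 ± 0.09), Myo5c (-0.35 ± 0.08), Sobp (-0.33 ± 0.06) and Rhot2 (-0.31 ± 0.06). Rhbdl1, Gm20683 and Rhot2 overlap on chromosome 17 (25834465 to 25844851), so their counts may share reads and are uncertain as separate falls. Smox and Amd1 encode enzymes of polyamine metabolism. Smox ranged from 20.9 over 59.5 to 273.3 CPM against 17.6 over 87.4 to 353.98 CPM, so the sets overlapped almost fully. Under total-count scaling the 10 stayed below 0, and Zic1 lost its call (adjusted p = 0.0504). With abundant genes alone the list ended with Asb10, a muscle ubiquitin ligase subunit (-0.31 ± 0.05). Without the 16 lymphocyte-rich libraries Zic1, Smox and Prokr1 lost their calls, at -0.35, -0.35 and -0.33 (adjusted p = 0.125, 0.0608 and 0.0579). Of the 10, 0 had a slope on Adipoq called among the libraries in neither set. There a negative slope was called for 7.24% of all genes and for 22.2% of those called lower between the sets.

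The difference between the sets was not the same in both sexes for 83 genes. It was larger, or more positive, in females for 78 (0.420% of those tested) and in males for 5 (0.0269%). With library block as covariate the share called rose from 0.446% to 1.8%, most of them larger in females. For Mgst1, a microsomal glutathione transferase, females had medians of 24.3 CPM in the high and 7.75 CPM in the low set, and males 32.03 and 26.9 CPM. The log2 difference was thus 1.52 in females and 0.22 in males, and the term for sex, male minus female, was -1.30 ± 0.19 (adjusted p = 1.17e-05). For Letmd1, a protein of mitochondria, medians were 12.1 and 6.14 CPM in females and 5.98 and 5.90 CPM in males (-0.94 ± 0.14). For Tkt, transketolase of the pentose phosphate pathway, they were 41.4 and 11.9 CPM in females and 17.2 and 10.2 CPM in males (-1.24 ± 0.21). Kcnk3, a potassium channel, gave -1.95 ± 0.33 and Pde3b, named above, -1.265 ± 0.211 (each adjusted p = 0.000137). For Plin1 (-0.285, adjusted p = 0.661), Cidec (-0.05, adjusted p = 0.959) and Lep (1.15, adjusted p = 0.337) the term did not pass the test. Fasn (-1.41), Pparg (-0.56) and Fabp4 (-0.57) did pass (adjusted p = 0.0121, 0.012 and 0.0299). Ucp1 exceeded 1 CPM in 20 of 25 high females and in 6 of 25 high males. Without those 26 libraries, 5 high females remained and 0 genes were called for the term (edgeR, 3.44% of genes at an unadjusted p under 0.05, not run by another tool). The term was then -1.17 for Mgst1, -0.05 for Letmd1, -0.14 for Tkt, -0.31 for Kcnk3 and -0.795 for Pde3b. Without the library labelled male whose sex-linked transcripts went against it, 58 genes were called, 56 of them larger in females, and without the 16 lymphocyte-rich libraries 33 were called, all larger in females. Their part in the sex term was not tested otherwise.

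**Figure D5:**
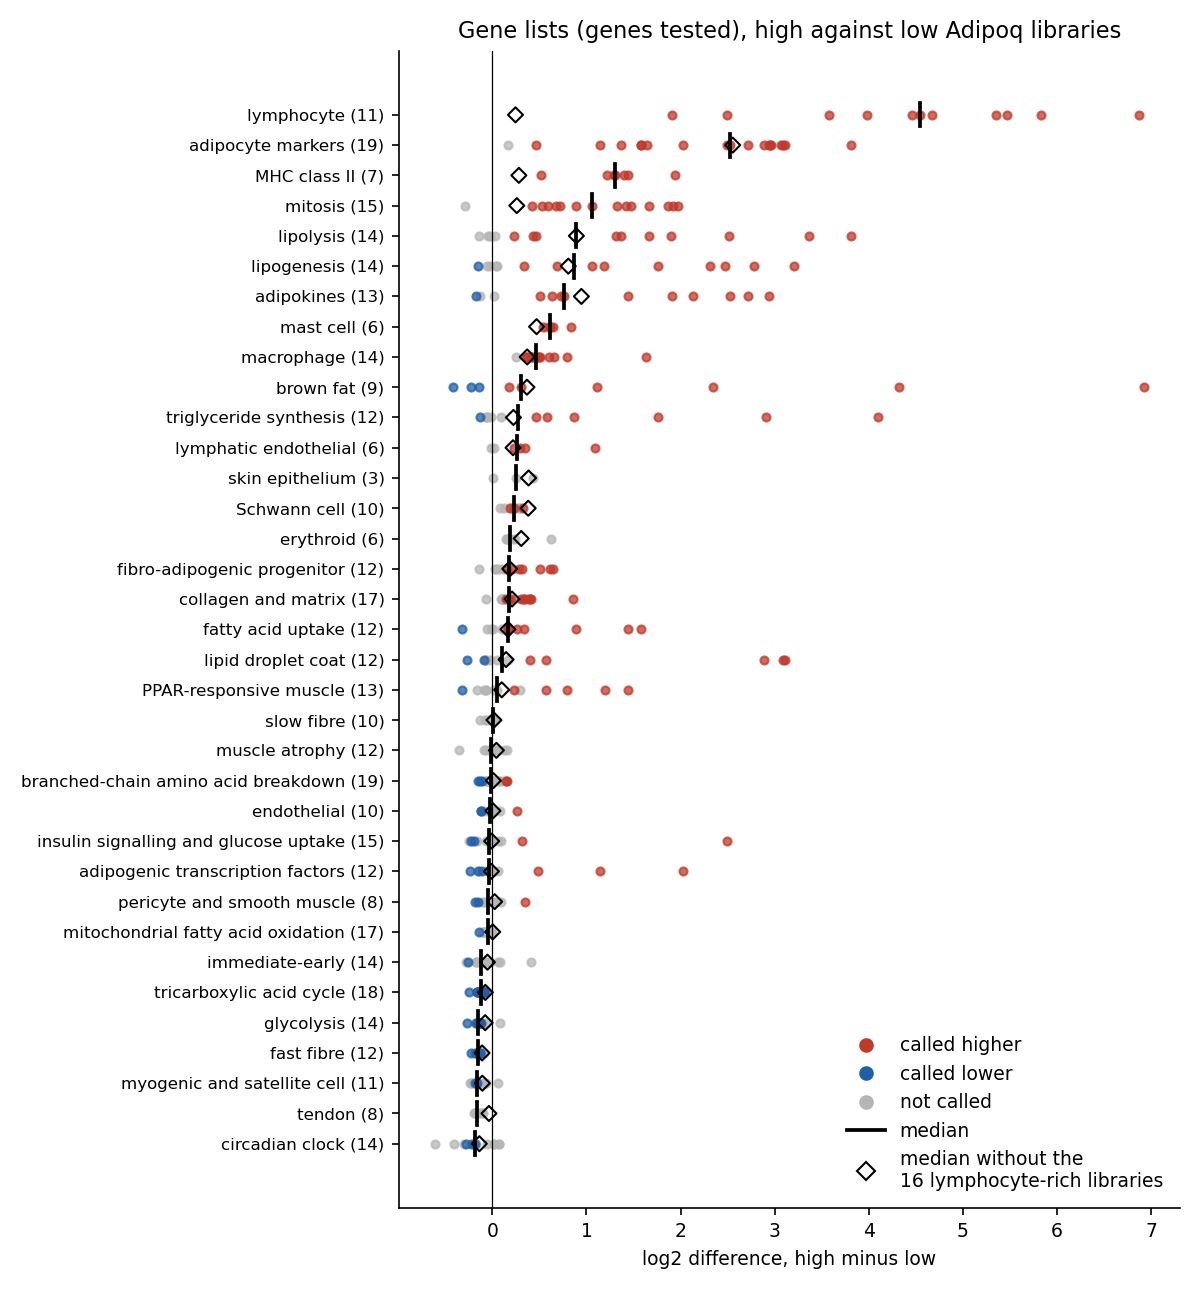
Log2 difference, high minus low, of the members of 35 gene lists (horizontal axis), 1 row per list with the number of genes tested, ordered by median. Red and blue points passed the test as higher and lower and grey did not, bars are medians, and diamonds are medians without the 16 lymphocyte-rich libraries. The diamonds leave the bars furthest for lymphocyte, MHC class II and mitosis genes, and stay at the bar for adipocyte markers. Under total-count scaling the medians of the fast fibre, glycolysis and citric acid cycle lists stay below 0, but most calls of these lists are lost.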

How the data were processed

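Polyadenylated muscle RNA was sequenced, 1 library per animal. The authors merged the mates of each pair, treated them as single reads against an 8-founder transcriptome and quantified them with EMASE within GBRS. The deposited tables hold expected counts per gene, not normalised, in which a fragment can count as 2 reads. For the same genes they hold a deposited score, the variance stabilising transform (VST) of DESeq2. The submitters' processing notes name GRCm38. Software versions and use of strand were not given in the sources used here, so overlapping genes are uncertain.

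Expected counts were rounded and tested in edgeR 4.0.16 under R 4.3.3 (quasi-likelihood, TMM scaling, filterByExpr with a minimum count of 10), with the 10 groups as covariate and Benjamini-Hochberg adjustment over all genes tested at 0.05. Wave, a covariate of the study, is not in the labels and was not fitted. Adipoq was left out of the tests, and CPM values use TMM-scaled totals. Total counts ran from 35902416 to 165723723. Alternatives used DESeq2 1.42.0, limma 3.58.1, other filters, scalings, covariates, set sizes, ranking genes and subsets of libraries. Slopes came from the same model in the libraries in neither set, and the sex term from an interaction. The genes named were some fixed by name, the 10 largest rises and falls of at least 1 CPM alike in sign in all 10 groups, the 5 largest of at least 50 CPM, the 5 of smallest p for sex, the 10 most correlated with Adipoq and up to 4 called members of each list, some of which are not reported here. The libraries, lists and rules were chosen with earlier results of these data known. Scripts were tested on simulated data. No duplicate libraries were seen, the lowest chi-square per gene between chosen libraries of 1 group being 79.6.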

Additional observations from a re-analysis of the deposited data

Results flagged for a closer look

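The difference between the sets was unlike in the sexes for 83 genes by the test of that difference (edgeR, adjusted p under 0.05). The 5 of smallest p, male minus female on the log2 scale, were Mgst1 (-1.301), Letmd1 (-0.938), Tkt (-1.24), Kcnk3 (-1.954) and Pde3b (-1.265). In each of them the difference was smaller in males. The 10 groups of sex and generation held 45 to 50 libraries, too many for the test of a single outlying library.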

How the results depend on the processing

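Of genes tested between the sets 30% were called, and counts stayed within 1.5 times of it under DESeq2, limma, other scalings, covariates, set sizes and ranking genes, in females alone and without each generation (3873 to 5759 genes, against 5581). Calls were 26.3% of genes with a mean of at least 5 CPM, where fewer genes were tested, and 9.44% in males alone. Within library blocks 1 to 5, with fewer libraries in each, they were 2.43, 12.6, 2.84, 0 and 1%, and edgeR gave block 4 1006 genes at an unadjusted p under 0.05. With alternatives chosen after seeing the data they were 12.3% without lymphocyte-rich libraries, 9.16% without those over 1 CPM of Ucp1, 8.11% without either and 11% with the lymphocyte level as covariate. A slope on Adipoq was called for 18.9% of genes, 36.9% over all libraries and 8.13% without libraries over either limit. The sex term, called for 0.446%, was called for 1.8% with block as covariate, 0.177% without lymphocyte-rich libraries and 0 genes without those over the Ucp1 limit (3.44% at an unadjusted p under 0.05). Genes not called between the sets are left out of the turned differences that follow, and Pdk4 among them lay between -0.379 and 0.451. Signs turned within block 4 for Cpa3 (-0.206), Dpp4 (-0.021), Lyz2 (-0.101), Mcpt4 (-0.47), Myh2 (0.076) and Prokr1 (0.146). Within block 5 they turned for Lpl (-0.019) and Rxrg (0.009), and within block 1 for Pmp22 (-0.164). With the lymphocyte covariate they turned for Cd22 (-0.009), Cd8a (-0.053), Ciita (-0.062), Ikzf3 (-0.285) and Lck (-0.17). Without libraries over either limit they did for Cd79a (-0.006), Ciita (-0.063) and Ikzf3 (-0.182), and without lymphocyte-rich libraries for Ikzf3 (-0.143). Slopes turned without libraries over either limit for Cd22 (-0.109), Cd79a (-0.08), Ikzf3 (-0.032), Letmd1 (-0.014) and Spib (-0.163), and over all libraries for Rhot2 (-0.066). Slopes that were not called could also change sign, that of Fabp3 lying between -0.07 and 0.036. The cause was not tested. Plin1 stayed between 2.81 and 3.39 and Scd1 between 3.05 and 3.57 within blocks. No paired analysis was possible because each animal gave 1 library and numbers in the titles name animals.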
